A study of Homo sapiens with 4 samples.

Results

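The m6A readers of the YTH and IGF2BP families were examined as RNAs, that is, for the YTHDF1 binding windows in their own transcripts. The 8 genes were YTHDF1, YTHDF2, YTHDF3, YTHDC1, YTHDC2, IGF2BP1, IGF2BP2 and IGF2BP3, and their windows were taken by gene symbol from the table of annotated peaks. This gave 28 windows of the 26819 distinct windows in the table, in 7 of the 8 genes. IGF2BP1 had no listed window. The 15 windows of YTHDF2 and YTHDF3 served as the comparison for the 3 windows of YTHDF1.

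The data came from RNA immunoprecipitation sequencing (RIP-seq) in SNU638, an established human gastric cancer cell line. All 4 libraries were made from cells that overexpressed YTHDF1, spent 24 h in serum-free medium and were then exposed to 10 ng/ml interferon-γ (IFN-γ) over 24 h. The 2 groups were IP-YTHDF1, the RNA pulled down with the protein, and Input, the RNA of the lysate, with 2 biological replicates each. Per the study's methods, the pulldown used an antibody to the FLAG tag, so the RNA was recovered with the introduced, tagged protein. No group without overexpression or without IFN-γ belongs to the series, so the windows describe binding under this state and not a change caused by it.

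N6-methyladenosine (m6A) is a methyl mark on adenosine inside messenger RNA, and readers are proteins that recognise it. YTHDF1, YTHDF2 and YTHDF3 are close paralogues that act in the cytoplasm through a shared YTH domain, a pocket that holds the methylated base. YTHDC1 is the nuclear YTH reader and is known for roles in splicing and export, while YTHDC2 also carries an RNA helicase domain. The IGF2BP proteins use KH domains and are known for stabilising their target messenger RNAs. The question asked of the table was which of these transcripts carried windows, where, and how strong those of YTHDF1 were beside those of its paralogues.

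Each window is a 50 bp stretch of a gene, for which the table gives a signal value, a p-value and a q-value. The p-value and q-value are taken here to compare IP-YTHDF1 with Input, as their headings name no sample. The signal value orders windows by strength, and its scale is not stated. It ran from 0.70 to 9.46 over the table, with a median of 1.84 and a middle range of 1.54 to 2.19 (25th to 75th percentile). Every listed window had a q-value of at most 0.05, adjusted within its gene. A deposited rank of 29704 among the members exceeds the number of listed windows. Some ranked windows may therefore be absent, and percentiles here refer to listed windows only. No value per library was given, so depth and the spread between replicates are unknown here, and no difference between members below could be tested. Per the paper, protein-coding peaks were a union over replicates, so a listed window may come from a single replicate.

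Bases of the annotated start of the transcript lay under a listed window in YTHDF1 and in YTHDF2, and these stretches are shown because they are the part of the bound RNA that can be read from the sequences at hand. They were read from the RefSeq promoter table (GRCh38.p14), in which 6 of the 8 genes had an entry. The YTHDF1 stretch is chr20:63216100-63216129 on the minus strand, bases 3 to 32 from the start site, and the YTHDF2 stretch is chr1:28736972-28736989 on the plus strand, bases 33 to 50 from the start site at 28736940. Capitals mark a run of GCC triplets.
YTHDF1: cGCCGCCGCCGCCGCCattggagtcgacgc
YTHDF2: ccgcgcgctgtgtctccg
The YTHDF1 stretch opened with 5 copies of GCC in a row. At least 3 copies (GCCGCCGCC), read on the transcript strand over bases 3 to 50, were found in 1.23% of 22199 promoter entries of protein-coding genes, a motif chosen after the YTHDF1 sequence was seen. Of the 48 YTHDF1 bases under its first window, 77.1% were G or C, and of the 18 YTHDF2 bases 77.8%, against a median of 64.0% over the first 50 bases of all entries (25th to 75th percentile 54.0% to 72.0%). GGAC, the core of the sequence in which m6A is usually placed, was in neither stretch on the transcript strand. Of all entries, 19.3% held it in bases 3 to 50, a longer stretch than the 18 YTHDF2 bases. Its reverse complement GTCC, which is GGAC on the opposite strand only, was in the 48 YTHDF1 bases and not in the YTHDF2 bases. Either GGAC or GTCC was in bases 3 to 50 of 33.9% of entries, and the share for GTCC alone was not computed.

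YTHDF1, the overexpressed gene, had 3 windows (ENSG00000149658, minus strand of chromosome 20), and they were adjacent and covered bases 3 to 152 from the 5′ end of the gene in RefSeq. The window at bases 3 to 52, from 63216080 to 63216129, had a signal value of 1.79. The next, at bases 53 to 102, was the strongest at 1.92, with a deposited q-value of 1.47e-05. The last, at bases 103 to 152, was weak at 1.01, with a q-value of 0.0422 that lay close to the limit. The first 2 windows thus stood on either side of the median of all windows, above 43.6% and 56.4% of them, and the last stood above 3.1%. RNA of the introduced YTHDF1 and of the endogenous gene was not separated, so no YTHDF1 value can be assigned to the endogenous transcript alone.

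YTHDF2, the paralogue best known for promoting decay of m6A-marked RNA, had 6 windows in 4 separate blocks (ENSG00000198492, plus strand of chromosome 1). The first block held 2 windows at bases 349 to 448 from the outermost 5′ end, with signal values of 1.22 and 1.35. Counted from the other annotated start site at 28736940, this block began at base 33. After 5350 bp without a listed window came the strongest window of the gene, from 28742422 to 28742471, with a signal value of 2.07 and a deposited q-value of 3.05e-07. The neighbour of that window had a signal value of 1.06. Single windows followed 250 bp and a further 550 bp downstream, with 1.18 and 1.10. Apart from the peak at 2.07, every YTHDF2 window was below the 25th percentile of the table.

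YTHDF3, whose protein is thought to work together with the other YTHDF proteins, had 9 windows in 4 blocks (ENSG00000185728, plus strand of chromosome 8). At the 5′ end, 4 adjacent windows covered bases 102 to 301 with signal values of 1.32, 1.80, 1.45 and 2.43 in that order. The last of these, from 63168804 to 63168853, was the strongest YTHDF3 window, above 85.5% of all windows, and its deposited q-value of 6.00e-14 was the smallest of all 28 windows. A gap of 17950 bp separated this block from a second group at bases 18252 to 18901. There the signal values were 1.00, 1.57 and 1.26 in 3 adjacent windows, then 1.28 and 1.76 in 2 windows standing alone.

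**Figure D1:**
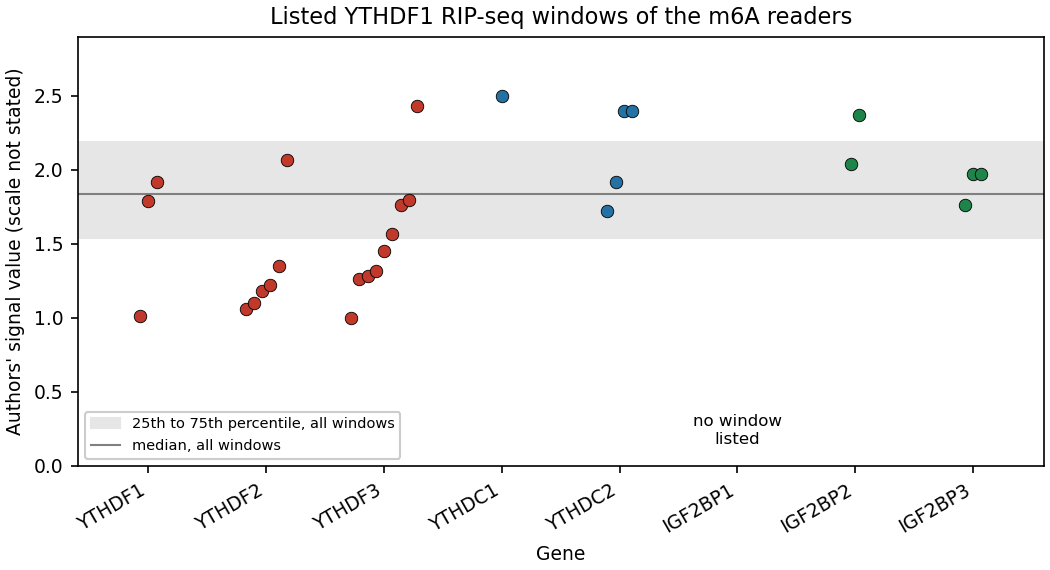
Authors' signal value of each listed window (points, ordered by value within a gene) for the 8 reader genes, coloured by family, with the median (line) and 25th to 75th percentile (band) of all 26819 windows. Most windows of YTHDF2 and YTHDF3 lie under the band, with 1 high window each at 2.07 and 2.43, while no window of YTHDF1 exceeds 1.92.

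The layout differed among the 3 paralogues. YTHDF2 and YTHDF3 each had a block near the 5′ end and a second group kilobases downstream in the genome, and YTHDF1 had the first kind alone. All distances here are genomic and may span introns, so they are not distances along the mature RNA. The tested windows covered 2300 bp of YTHDF2 and 3000 bp of YTHDF3, less than the gap before the second group in either gene. In all, 9 of the 18 YTHDF windows began within 500 bp of the 5′ end of their gene. By the strongest window, YTHDF1 was below YTHDF2 by 0.15 in signal value and below YTHDF3 by 0.51. That order turned with the summary used. By the mean over the listed windows, YTHDF1 was above YTHDF2 by 0.24, at 1.57 against 1.33, and above YTHDF3 by 0.03, at 1.57 against 1.54. By the median, it was above them by 0.59 and 0.34. Within 500 bp of the 5′ end alone, the strongest YTHDF1 window exceeded that of YTHDF2 by 0.57 (1.92 against 1.35) and stayed below that of YTHDF3 (2.43). No order of YTHDF1 and its paralogues by strength therefore held under every summary.

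**Figure D2:**
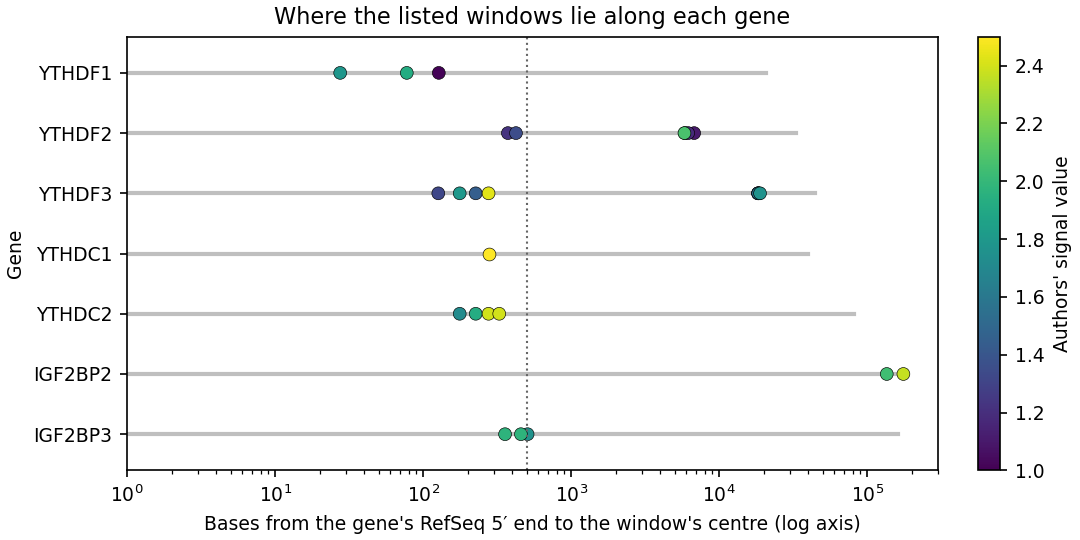
Centre of each listed window (points, coloured by the authors' signal value) in genomic bases from the outermost RefSeq 5′ end of its gene, on a log axis, with each gene drawn as a grey line and 500 bp as a dotted line. All 3 YTHDF1 windows lie in the first 152 bases, YTHDF2 and YTHDF3 have a second group downstream, and the IGF2BP2 windows start 135554 bases or more into the gene.

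How many windows had been tested in a gene was worked out from its p-values and q-values. YTHDF1 had the most tested windows of the 7 genes, 70, and the shortest genomic span in RefSeq, 20703 bp with introns included. YTHDF3 had 60 and YTHDF2 46. The 70 windows of 50 bp amounted to 16.9% of the genomic span of YTHDF1, against 6.94% for YTHDF2, 6.78% for YTHDF3 and a median of 5.54% over 6351 protein-coding genes. Exons and introns were not separated, so these shares do not compare how much of the mature RNA was tested. Only 3 of the 70 YTHDF1 windows were listed (4.29%), the lowest share among the 7 genes. IGF2BP2 (5.13%) and YTHDC1 (5.26%) were close to it, and 18.6% of protein-coding genes had a lower share than YTHDF1. The paralogues had 6 of 46 for YTHDF2 (13.0%) and 9 of 60 for YTHDF3 (15.0%), beside a median of 8.93% over protein-coding genes. The other 67 tested windows of YTHDF1 were not listed. Of 761 other protein-coding genes with 60 to 80 tested windows, 31.9% had 3 listed windows or fewer, and their median was 5. What decides whether a window was tested is not stated, the level of YTHDF1 RNA in the libraries is not part of the table, and the part of the overexpression in these counts was not tested.

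**Figure D3:**
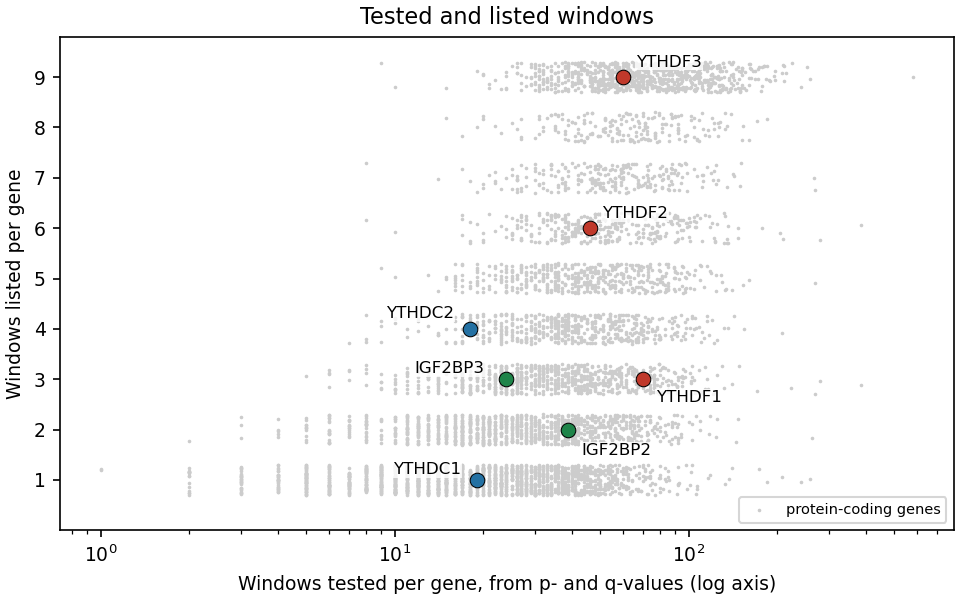
Listed windows per gene (vertical axis, grey points spread slightly for visibility) against windows tested per gene (log axis) for protein-coding genes in grey and the 7 listed readers in colour by family. YTHDF1 lies to the right of the other readers with 70 tested windows and has 3 listed, while YTHDC2 has 4 listed of 18 tested.

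All windows of the YTHDC genes lay near the 5′ end. YTHDC1, the nuclear reader (ENSG00000083896, minus strand of chromosome 4), had 1 window of 19 tested, from 68349788 to 68349837 at bases 254 to 303. Its signal value of 2.50 was the highest of the 28 windows, with a deposited q-value of 1.19e-05. YTHDC2, the helicase reader (ENSG00000047188, plus strand of chromosome 5), had 4 adjacent windows at bases 152 to 351, from 113513845 to 113514044. Their signal values were 1.72, 1.92, 2.40 and 2.40 from the 5′ side, and the last 2 shared the same deposited q-value of 8.53e-06. With 4 of 18 tested windows listed (22.2%), YTHDC2 had the highest share of the 7 genes, above 92.1% of protein-coding genes. No gene had more than 9 listed windows, so the shares of genes with 9, YTHDF3 among them, may be too low. The strongest windows of YTHDC1 and YTHDC2 differed by 0.10.

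The IGF2BP genes differed in where their windows lay. IGF2BP2 (ENSG00000073792, minus strand of chromosome 3) had 2 windows of 39 tested, and neither was near the 5′ end. They lay 39950 bp apart, the first from 185689440 to 185689489 with a signal value of 2.04, and the second from 185649440 to 185649489 with 2.37 and a deposited q-value of 3.19e-06. IGF2BP3 (ENSG00000136231, minus strand of chromosome 7) had 3 windows of 24 tested, at bases 333 to 382 and 433 to 532. Their signal values were 1.97, 1.97 and 1.76, and its smallest deposited q-value, 0.00604, was the largest minimum among the 7 genes. IGF2BP1, the family member expressed mainly in development and in some tumours, had no listed window, and without library values it cannot be said whether its RNA was present.

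Taken by the strongest window of each gene, the order of signal values was YTHDC1 2.50, YTHDF3 2.43, YTHDC2 2.40, IGF2BP2 2.37, YTHDF2 2.07, IGF2BP3 1.97 and YTHDF1 1.92. The first 4 genes lay within 0.13 of each other and above the median of 2.23 over protein-coding genes, and the last 3 lay below it. YTHDF1, whose introduced and endogenous RNA were not separated, was thus last, above 23.0% of 6679 protein-coding genes with a window. YTHDC1 was above 71.2%. Since a gene with more windows has more chances of a strong one, each was also set beside genes with the same number. On that scale YTHDF2 and not YTHDF1 was last, as YTHDF2 exceeded 20.4% of 343 other genes with 6 windows (median 2.39) and YTHDF1 exceeded 23.4% of 854 other genes with 3 windows (median 2.19). IGF2BP3 exceeded 27.2% of the genes with 3 windows, YTHDC2 59.1% of those with 4 and IGF2BP2 69.8% of those with 2. YTHDC1 exceeded 82.8% of genes with 1 window, and YTHDF3 exceeded 46.0% of genes with 9, whose median was 2.48. By the smallest deposited p-value, YTHDF3 was instead ahead of all other members, with a smaller one than 93.3% of protein-coding genes, and IGF2BP3 was last with 15.7%. As there is no spread between replicates for any of these values, neighbours in the order cannot be told apart.

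**Figure D4:**
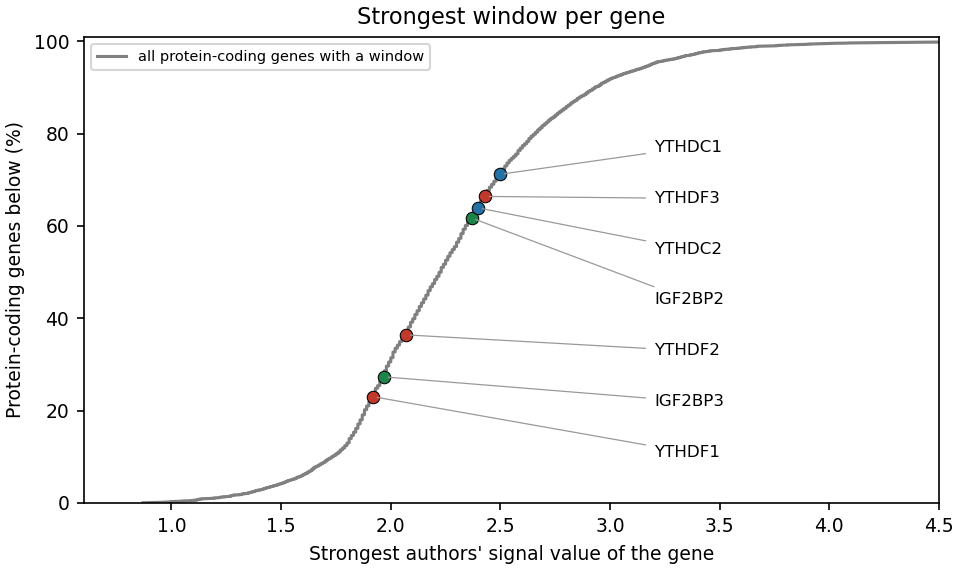
Share of protein-coding genes (in percent) whose strongest window lies below a given signal value, as a grey curve over 6679 genes, with the 7 listed readers marked at their own strongest window and coloured by family. YTHDF1 at 1.92 is lowest of the readers, above 23.0% of genes, and YTHDC1 at 2.50 is highest, above 71.2%.

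A listed window was found in 7 of the 8 reader genes (87.5%), next to 31.8% of the 20056 RefSeq protein-coding genes. The background takes in genes that SNU638 cells may not express, so these shares do not rest on equal terms. Among the listed members, 6 of 7 had a window that began within 500 bp of the 5′ end, against 43.8% of 6375 listed protein-coding genes, and the exception was IGF2BP2. All windows of the gene lay there in 4 members (YTHDF1, YTHDC1, YTHDC2 and IGF2BP3), next to 15.2% of the listed genes. Counted by window, 17 of 28 (60.7%) were within 500 bp, against 24.6% of 23641 windows in protein-coding genes. Touching windows were counted singly here, although the 28 windows formed 15 blocks, and no share by block was computed for protein-coding genes. Of 814 genes with 3 windows, 100 (12.3%) had all of them within 500 bp, YTHDF1 included. In 12 of the 814 (1.47%) all 3 windows ended by base 152, a limit taken from YTHDF1 itself after its position was seen. Window by window, the families had unequal medians, a difference that was not tested. Only windows that passed the q-value limit in their gene are listed, and the signal value that went with it differed between genes. A YTHDF3 window with a signal value of 1.00 had a q-value of 0.0289, and an IGF2BP3 window with 1.76 had 0.0277. Medians over listed windows therefore do not compare the families on equal terms. The median signal value was 1.33 over the YTHDF windows, 2.40 over the YTHDC windows and 1.97 over the IGF2BP windows, beside 1.84 in the table, and 3 of 18, 4 of 5 and 4 of 5 windows lay above the median of the table. Over all 28 windows the median was 1.76, and 12 (42.9%) had a q-value of at most 0.001, next to 43.7% of all windows.

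No window of another gene lay within 500 bp of any of the 28 on either strand. Within each of the 7 genes the q-values followed the order of p-values without a skipped position, to within 1%. In YTHDF3 the 9 listed windows equal the most listed for any gene, a number that 853 other protein-coding genes also had. An unlisted window with a larger p-value than these would leave no mark in that order. Whether the windows fall in exons, introns or untranslated regions was not analysed here.

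The other genes of the m6A pathway were counted in the same way, as 26 genes of which 20 had a listed window (76.9%), beside the same 31.8% of protein-coding genes. Their 91 windows had a median of the strongest value per gene of 2.21, against 2.37 for the members and 2.23 for protein-coding genes. Of 12 genes listed here as writers, 8 had a window. The list takes in methyltransferases of RNA adenosine and subunits of their complexes, and was not limited to m6A inside messenger RNA. CBLL1, a subunit of the writer complex, was highest among them with a strongest signal value of 3.18, and VIRMA, its scaffold, was lowest with 1.85. No window was listed for METTL14, the RNA-binding partner of the catalytic subunit METTL3, or for METTL5, ZCCHC4 and PCIF1. Both erasers, which remove the mark, were listed, with a strongest value of 2.66 for ALKBH5 and 2.17 for FTO.

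Of 9 other proteins described as m6A readers, 8 had a window, from 1.52 in HNRNPC to 2.38 in ELAVL1, and FMR1 had none. Among 3 partners of YTHDF proteins, UPF1, a helicase of nonsense-mediated decay, reached 3.38. CNOT1, the scaffold of the CCR4-NOT deadenylase that YTHDF2 recruits, reached 2.23, and RIDA had no listed window. A window within 500 bp of the 5′ end was thus not limited to the YTH and IGF2BP genes, as 15 of these 20 listed genes had one, and so did 43.8% of all listed protein-coding genes.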

How the data were processed

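Binding of YTHDF1 was measured by RIP-seq in 4 libraries of SNU638 cells. The authors deposited 1 table for the whole series, and per the submitters' processing notes STAR 2.7.3a and GRCh38 were used. The peak caller is not given in the sources used here. The deposited signal value and rank are scores of unstated scale, and the deposited p-value and q-value belong to each 50 bp window. Since none of the columns holds values of 1 library, libraries were not compared and their depth is unknown, and the groups come from the labels alone.

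Of 26820 rows, 1 exact repeat was dropped. Starts are given from 1. The number of windows tested in a gene was computed as the largest q-value times position divided by p-value, for p-values above 1e-14, since q-values behave as Benjamini-Hochberg values within genes. In simulated data it was recovered to within 1 window or 1% in 100% of 951 genes. The simulated q-values were made with the same formula, so this checks the computation and not how the deposited q-values were made. Of 6674 protein-coding symbols, 6370 (95.4%) matched RefSeq (GRCh38.p14), whose outermost coordinate gave the 5′ end. Of 23641 windows so placed, 97.3% lay inside the gene. Genome sequence and exon annotation were not used here.

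The 8 members are named with all windows. From the 26 other m6A genes, those without a window and the highest and lowest of each list are named, plus METTL3 as background. Members and lists were chosen with earlier results of these data known, and no test was run. Alternatives were stricter limits on q, p and signal value, joined windows, windows free of overlap and other summaries per gene. Python 3.11.15, pandas 2.3.3, NumPy 2.4.6 and matplotlib 3.10.9 were used.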

Additional observations from a re-analysis of the deposited data

How the results depend on the processing

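No paired analysis was possible because no window carries a value per library, and leaving out each replicate was not run for the same reason. The count of listed members (7) was 6 at a q-value of at most 0.001, 5 with signal values of 2 or more and 3 under a Bonferroni limit (p of at most 1.61e-07) over the windows of all listed genes, which left YTHDF2, YTHDF3 and IGF2BP2. Under these 3 settings the 28 windows became 12, 7 and 4, the 3 windows of YTHDF1 became 1, 0 and 0, and the 20 other m6A genes became 17, 15 and 10. Signal values above the median left 11 windows, 1 of them in YTHDF1. Joining touching windows gave 15 regions, 1 of them in YTHDF1. These losses follow from the limits themselves. The share of all protein-coding genes with a window, 31.8% in the main setting, also fell. It was 21.2% with the stricter q-value, 22.0% with the limit on signal value and 12.5% under the Bonferroni limit. Without windows that overlap another gene on the same strand, every member value was as before.

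The median of the strongest signal value (2.37) was 2.38 with the stricter q-value and 2.40 with the limit on signal value, and it was 1.90 and 1.97 when the mean or the median of each gene took the place of its strongest window. The difference between YTHDF1 and YTHDF2 (-0.15) turned to 0.24 by the mean, to 0.59 by the median and, chosen after the data were seen, to 0.57 within 500 bp of the 5′ end. That between YTHDF1 and YTHDF3 (-0.51) turned to 0.03 by the mean and 0.34 by the median. With no YTHDF1 window left, neither difference had a value under the Bonferroni limit or the limit on signal value. Also chosen after the data were seen, a distance of 200 bp in place of 500 bp left 3 of the 6 members with a window near the 5′ end, 1000 bp gave 6, and start sites of the promoter table gave 5, since YTHDF3 has no entry there.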
